A study of Homo sapiens with 10 samples.

Results

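The genes examined were 10 glucose transporters and glycolytic isozymes: the glucose transporters SLC2A1 and SLC2A3, the hexokinases HK1 and HK2, the platelet phosphofructokinase PFKP, the aldolases ALDOA and ALDOC, the enolase ENO2, the pyruvate kinase PKM and the lactate dehydrogenase subunit LDHA. They were chosen by gene symbol from the 17709 probe sets with a symbol among 21448 gene probe sets tested. Each of the 10 genes had 1 probe set.

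Glucose enters cells through the SLC2A transporters, is trapped as glucose 6-phosphate by hexokinases, and is split and oxidised to pyruvate by the enzymes of glycolysis. Several steps are run by alternative isozymes: HK1 is the widespread hexokinase and HK2 is the inducible one of muscle and many tumours, ALDOA is the muscle-type aldolase and ALDOC the brain type, and ENO2 is the neuron-specific enolase long used as a serum marker of neuroblastoma. Lactate dehydrogenase then turns pyruvate into lactate, and MYC-family and hypoxia-inducible factors are known regulators of many of these genes.

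RNA was measured on Affymetrix arrays in 2 human neuroblastoma cell lines, SK-N-AS and SK-N-FI, both grown in IMDM with serum. The SK-N-AS arrays were 3 treated (numbered 28, 29 and 30) and 3 control (25, 26 and 27), and the SK-N-FI arrays were 2 treated and 2 control (1 and 2 in each). Treated cells of both lines received BG-P1600-TAT, a PEGylated conjugate whose 2 named targets are the norepinephrine transporter (NET) and thyrointegrin αvβ3, at 30 µM for 48 h. Control cells received PBS of pH 7.4 for as long. The titles of treated SK-N-AS arrays shorten the agent's name to BG-P-TAT, which was taken as BG-P1600-TAT, and the cell line field of SK-N-FI reads SKNF1. The labels call SK-N-AS a primary cell line and name no separate cultures behind its arrays. The p-values below therefore measure how far arrays spread, and that spread can be technical. No genetic change was made in either line.

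Values are deposited log2 signals, so a difference of 1 is a doubling of the signal. Array medians over the gene probe sets lay between 5.75 and 5.81 in SK-N-AS and between 6.61 and 6.62 in SK-N-FI, and the median probe set was 0.61 lower in SK-N-AS controls than in SK-N-FI controls (0.62 lower between treated arrays). Differences between lines are therefore given on the deposited scale and again after quantile normalization over all 10 arrays, which brings that median to 0.03 and 0.02. Such an offset between lines cancels between treated and control arrays of 1 line. The gap between the 2 scales was not equal for all genes. Quantile normalization took the control difference of HK1 from 1.63 to 3.12 and that of PKM from -0.47 to -0.40. All 6 noradrenergic neuroblastoma markers with a probe set had lower means in SK-N-AS controls than in SK-N-FI controls on either scale. The lower call was made for 6 of 6 on the deposited scale and 3 of 6 after quantile normalization, beside 47.8% and 22.8% of all probe sets. Of these 6 markers, 3 were above background (defined below) on all 10 arrays, and TH was above it on 0. DBH, which makes noradrenaline, averaged 6.28 in SK-N-AS controls, not above background on any of those arrays, against 14.14 in SK-N-FI controls. Of 8 mesenchymal markers, 4 were called higher and 2 lower in SK-N-AS controls on the deposited scale (11.5% and 47.8% of all probe sets), and 6 higher and 1 lower after quantile normalization (23.9% and 22.8%). Of these 8, 3 were above background on all 10 arrays, while PRRX1 was above it on 1 array and YAP1 on 3. FN1, a matrix glycoprotein, was called higher and CD44, a hyaluronan receptor, lower on either scale. These marker differences do not settle the cell state of either line, and their part in the results below was not tested.

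A signal was taken as above background on an array if it was over the 95th percentile of that array's 612 negative controls. By that rule 8 of 10 genes were above background on all 10 arrays, against 27.2% of all gene probe sets. ALDOC passed on 7 arrays, including 3 of the 6 SK-N-AS arrays, and ENO2 passed on the 4 SK-N-FI arrays and on 0 of the SK-N-AS arrays. Against the 99th percentile, PFKP, ALDOA, PKM and LDHA were above on all 10 arrays, SLC2A3 on 6, HK1 on 3, SLC2A1 on 2, and HK2, ALDOC and ENO2 on 0, where 6.86% of all gene probe sets were above on all 10 arrays.

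**Figure D1:**
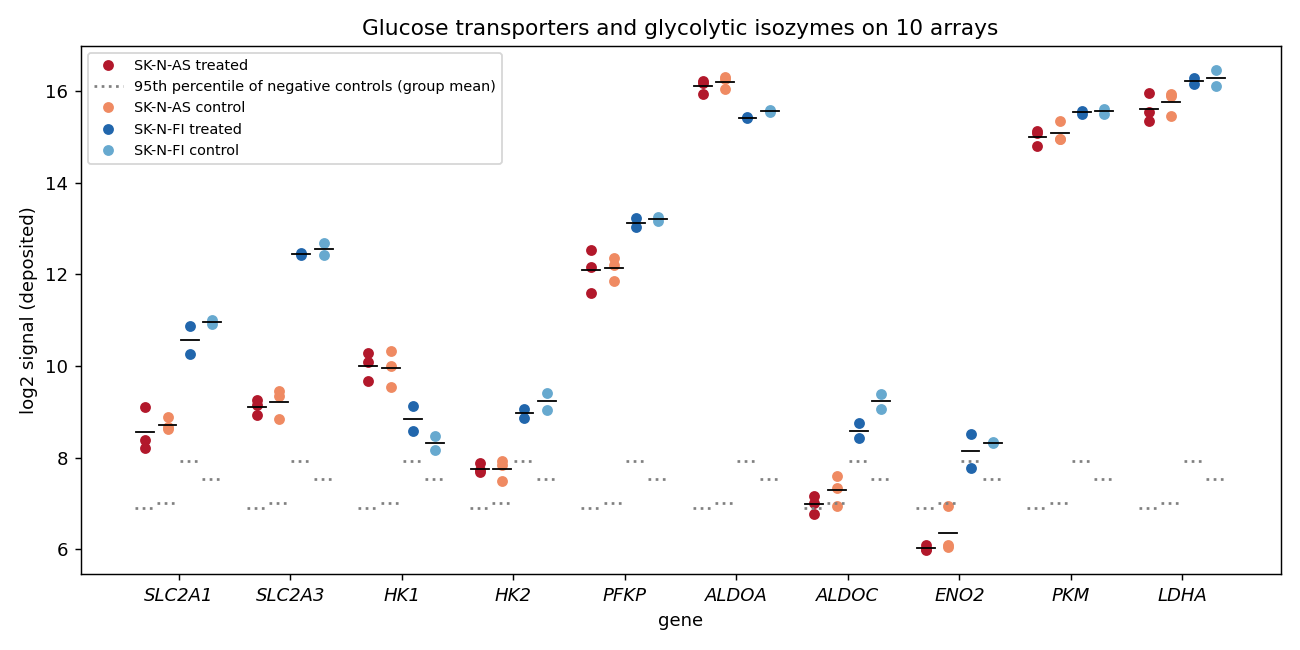
Log2 signal of the 10 genes on every array (y axis) by gene and group (x axis), with 1 point per array, a bar at the mean of each group and a dotted line at the group mean of the 95th percentile of negative controls. The points of SK-N-AS lie above those of SK-N-FI for HK1 and ALDOA and below them for the other 8 genes, and treated and control points of a line lie close together.

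In all 10 genes the 2 groups of a line were neighbours in the order of levels, and no array of one line lay within the range of the other on the deposited scale. SK-N-AS was the higher line for HK1 and ALDOA and the lower line for 8 of 10 genes. Such separation was common: 73.1% of all probe sets did not overlap between the control groups and 72.2% between the treated groups. Between controls, 2 genes were called higher and 6 lower in SK-N-AS at an adjusted p of 0.05 (limma, Benjamini-Hochberg over all probe sets), beside 11.5% of all probe sets called higher and 47.8% called lower. After quantile normalization 1 gene was called higher and 2 lower, beside 23.9% and 22.8% of all probe sets. Between treated arrays the counts were 2 higher and 6 lower on the deposited scale (11.2% and 47.8% of all) and 2 higher and 3 lower after quantile normalization (23.4% and 22.2%). Median centring of the arrays gave 2 higher and 5 lower between controls (34.9% and 27.8% of all) and 2 higher and 4 lower between treated arrays (34.1% and 27.5%). Being called was thus common on the array, and the counts of the 10 genes are not read as particular to them. HK1 (higher) and SLC2A3 (lower) were the 2 genes called in both comparisons on the deposited, median-centred and quantile-normalized values alike. Of all probe sets, 9.09% were called higher and 18.9% lower in both comparisons on both the deposited and the quantile-normalized values.

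HK1, the first enzyme that glucose meets in most tissues, had the largest difference between lines on the quantile-normalized values. It had 10.29, 10.08 and 9.66 in treated SK-N-AS arrays and 10.32, 9.53 and 10.00 in SK-N-AS controls, against 9.13 and 8.58 in treated SK-N-FI arrays and 8.17 and 8.48 in SK-N-FI controls. Every SK-N-AS array was above every SK-N-FI array. The SK-N-FI values were dim: all 4 passed the 95th percentile of negative controls, but 0 passed the 99th in either SK-N-FI group. The lowest, 8.17 in SK-N-FI control array 1, stood against a 95th percentile of 7.61. In controls HK1 was 3.09-fold higher in SK-N-AS (log2 difference 1.63, 95% interval 0.99 to 2.27, limma adjusted p = 0.000404) and 8.68-fold higher after quantile normalization (3.12, interval 2.49 to 3.74, adjusted p = 4e-06). In treated arrays the log2 difference was 1.16 on the deposited scale (adjusted p = 0.0045) and 2.69 after quantile normalization (adjusted p = 1.4e-05). The deposited difference between treated arrays fell to 0.88 and was no longer called without SK-N-FI treated array 2. Ranked among the gene probe sets of each array, HK1 stood between the 84.5th and 89.2nd percentile in SK-N-AS and between the 61.2nd and 68.6th in SK-N-FI.

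HK2, the hexokinase that hypoxia and MYC are known to induce in many tumours, did not keep a direction. It had 7.87, 7.72 and 7.68 in treated SK-N-AS arrays and 7.50, 7.83 and 7.93 in SK-N-AS controls, against 9.07 and 8.87 in treated SK-N-FI arrays and 9.05 and 9.41 in SK-N-FI controls. On the deposited scale it was lower in SK-N-AS, by a log2 difference of -1.47 in controls (adjusted p = 0.000113) and -1.21 in treated arrays (adjusted p = 0.00053). After quantile normalization the differences were 0.15 (interval -0.32 to 0.63, adjusted p = 0.599) and 0.36 (interval -0.11 to 0.84, adjusted p = 0.196). Median centring gave HK2 -0.63 in controls (adjusted p = 0.0307) and -0.38 in treated arrays (adjusted p = 0.172). Its percentile rank was 69.3 to 72.5 in SK-N-AS and 67 to 70.8 in SK-N-FI.

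The difference between the 2 hexokinase probe sets on 1 array does not depend on an offset between lines that both probe sets share. Probe sets differ in brightness for equal RNA, so the sign of this difference says nothing of which isozyme is more abundant, and only its change between lines is read. HK1 minus HK2 ran from 1.70 to 2.83 in SK-N-AS (median 2.21) and from -0.93 to 0.06 in SK-N-FI (median -0.58). The ranges were also apart after quantile normalization, at 1.73 to 2.73 in SK-N-AS and -0.85 to 0.06 in SK-N-FI. HK1 thus stood higher against HK2 on each SK-N-AS array than on any SK-N-FI array.

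**Figure D2:**
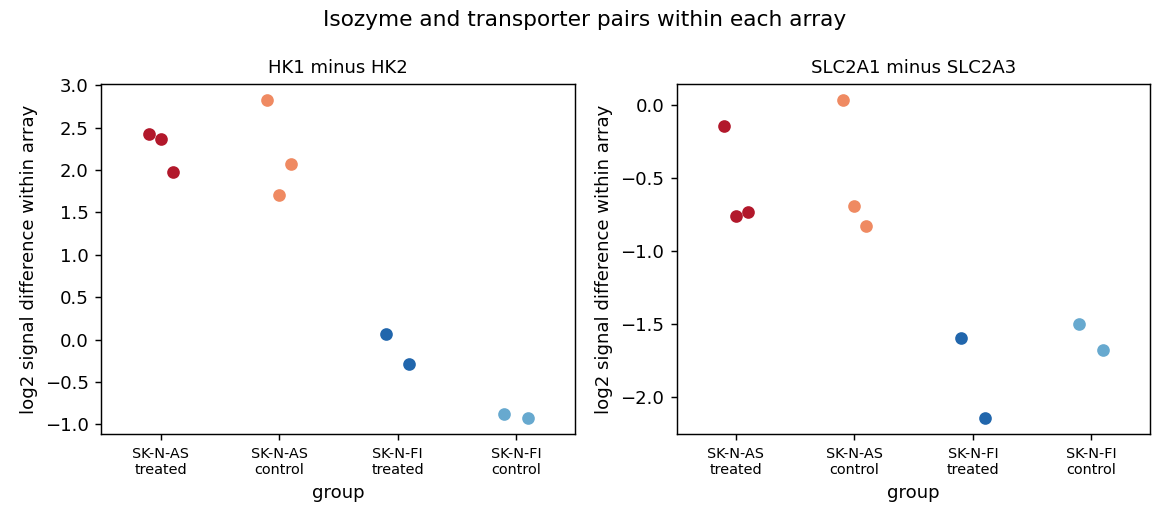
Deposited log2 signal of one probe set minus another on the same array (y axis) by group (x axis), with 1 point per array and a panel for each pair. HK1 minus HK2 is 1.70 or more on each SK-N-AS array and 0.06 or less on each SK-N-FI array.

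Windows around listed starts of the hexokinases are shown because HK1 stood higher against HK2 on SK-N-AS arrays than on SK-N-FI arrays. Windows of RefSeq (GRCh38.p14) run from 250 bases before to 50 bases after a start, and 9 of the 10 genes matched one, with 22 windows in all. The letters ACGTG, the core that hypoxia-inducible factors and MYC-type factors share, were searched on both strands, so that CACGT on the printed strand is a match too and a CACGTG (the E-box of MYC) counts as 2 overlapping matches. ACGTG was found in 21.4% of 35116 windows of this length and CACGTG in 7.26%. Of the 9 genes with a window, 6 had ACGTG at 1 or more starts and 4 had CACGTG. Counted by window, as for the share of all windows, 9 of 22 held ACGTG and 4 of 22 CACGTG, and windows of 1 gene can overlap. HK1 had no match in any of its 7 windows, and HK2 had 2 and 4 matches in its 2 windows. Matches are in capitals below, on the strand of the gene, for HK1 at chr10:69318814-69319113 (+) and HK2 at chr2:74834920-74835219 (+). The HK1 window shown is that of start 6 of the 7 listed, picked from windows that all lacked a match. Other listed HK1 starts lie before it on this strand, so the window can hold transcribed HK1 sequence. It is not read as a promoter to set against that of HK2. The HK2 window shown is that of start 2 of 2, which has the more matches.
HK1: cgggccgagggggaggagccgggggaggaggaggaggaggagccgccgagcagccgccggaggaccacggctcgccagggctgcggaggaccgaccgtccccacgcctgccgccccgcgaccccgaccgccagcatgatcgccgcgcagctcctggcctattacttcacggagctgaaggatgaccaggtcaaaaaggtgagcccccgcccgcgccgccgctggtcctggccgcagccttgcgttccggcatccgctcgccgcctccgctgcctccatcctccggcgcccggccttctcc
HK2: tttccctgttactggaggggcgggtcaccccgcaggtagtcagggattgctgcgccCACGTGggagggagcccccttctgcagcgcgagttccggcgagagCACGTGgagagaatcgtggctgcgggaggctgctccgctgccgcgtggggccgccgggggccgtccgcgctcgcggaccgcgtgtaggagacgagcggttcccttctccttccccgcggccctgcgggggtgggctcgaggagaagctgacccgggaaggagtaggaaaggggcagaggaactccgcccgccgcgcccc
A match describes these letters in this window, and binding was not measured.

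Among the transporters, SLC2A3 (GLUT3), the high-affinity glucose transporter of neurons, was the gene with the widest gap on the deposited scale. It had 9.25, 9.15 and 8.94 in treated SK-N-AS arrays and 8.84, 9.35 and 9.45 in SK-N-AS controls, against 12.46 and 12.42 in treated SK-N-FI arrays and 12.42 and 12.68 in SK-N-FI controls. All 6 SK-N-AS arrays were below all 4 SK-N-FI arrays. The log2 difference was -3.34 in controls (interval -3.86 to -2.82, adjusted p = 1.84e-07), or 10.1-fold lower in SK-N-AS, and -3.33 in treated arrays (adjusted p = 1.93e-07). After quantile normalization it was -1.84 in controls (3.57-fold lower, adjusted p = 5.54e-05) and -1.82 in treated arrays (adjusted p = 6.12e-05). Its percentile rank was 80.0 to 84.0 in SK-N-AS and 91.6 to 92.7 in SK-N-FI. The signal of SLC2A3 may not be separable from that of its close copy SLC2A14. SLC2A14 averaged 10.89 in SK-N-AS controls and 12.9 in SK-N-FI controls, with a smaller quantile-normalized difference (-0.68).

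SLC2A1 (GLUT1), the basal transporter of most dividing cells, was called lower in SK-N-AS on the deposited and median-centred values but not after quantile normalization. It had 9.11, 8.39 and 8.20 in treated SK-N-AS arrays and 8.88, 8.66 and 8.62 in SK-N-AS controls, against 10.87 and 10.27 in treated SK-N-FI arrays and 10.92 and 11.01 in SK-N-FI controls. The log2 difference between controls was -2.25 (adjusted p = 2.67e-05), -1.40 after median centring (adjusted p = 0.00144) and -0.54 after quantile normalization (interval -1.21 to 0.12, adjusted p = 0.167). Between treated arrays it was -2.00 (adjusted p = 7.03e-05), -1.17 after median centring (adjusted p = 0.00486) and -0.31 after quantile normalization (adjusted p = 0.429). Within arrays, SLC2A1 minus SLC2A3 ran from -0.83 to 0.04 in SK-N-AS and from -2.15 to -1.50 in SK-N-FI, and these ranges stayed apart after quantile normalization (-0.83 to 0.04 and -2.35 to -1.67). SLC2A3 was thus lower against SLC2A1 on each SK-N-AS array than on any SK-N-FI array.

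PFKP, the platelet form of the phosphofructokinase that commits sugar to glycolysis, was bright in both lines. It had 12.53, 12.17 and 11.58 in treated SK-N-AS arrays and 12.36, 11.85 and 12.20 in SK-N-AS controls, against 13.03 and 13.24 in treated SK-N-FI arrays and 13.17 and 13.25 in SK-N-FI controls. The log2 difference was -1.07 in controls (adjusted p = 0.00568) and -1.04 in treated arrays (adjusted p = 0.00693), the second of which was not called without SK-N-FI treated array 2 (-0.93). After quantile normalization it was 0.11 in controls (interval -0.48 to 0.70, adjusted p = 0.766) and 0.17 in treated arrays (interval -0.42 to 0.76, adjusted p = 0.632). Median centring gave PFKP -0.23 in controls (adjusted p = 0.514) and -0.20 in treated arrays (adjusted p = 0.567). Its rank lay between the 93.6th and 96.1st percentile in SK-N-AS and between the 94.0th and 95.0th in SK-N-FI.

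ALDOA was the other gene with higher signals in SK-N-AS. It had 16.19, 16.23 and 15.94 in treated SK-N-AS arrays and 16.31, 16.06 and 16.27 in SK-N-AS controls, against 15.44 and 15.41 in treated SK-N-FI arrays and 15.59 and 15.54 in SK-N-FI controls. The log2 difference was 0.65 in controls (1.57-fold, adjusted p = 0.0166) and 0.70 in treated arrays (adjusted p = 0.0112). After quantile normalization it was 0.51 in controls (adjusted p = 0.056, not called) and 0.67 in treated arrays (adjusted p = 0.0176). Median centring gave larger differences, 1.49 in controls (adjusted p = 7.94e-05) and 1.53 in treated arrays (adjusted p = 6.51e-05). The deposited call in controls was lost when either SK-N-FI control array was left out (0.67 without array 1 and 0.63 without array 2). The deposited call in treated arrays was lost without SK-N-FI treated array 2 (0.69), and the quantile-normalized one without either SK-N-FI treated array or SK-N-AS treated array 29.

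ALDOC, the brain-type aldolase, had 6.77, 7.0 and 7.17 in treated SK-N-AS arrays and 7.60, 6.95 and 7.34 in SK-N-AS controls, against 8.43 and 8.75 in treated SK-N-FI arrays and 9.39 and 9.07 in SK-N-FI controls. The SK-N-AS values were near the background limit. The log2 difference was -1.93 in controls (adjusted p = 3.12e-05) and -1.61 in treated arrays (adjusted p = 0.000143). After quantile normalization it was -0.34 (interval -0.93 to 0.26, adjusted p = 0.337) in controls and -0.14 (interval -0.73 to 0.46, adjusted p = 0.712) in treated arrays. Median centring gave -1.09 in controls (adjusted p = 0.00303) and -0.77 in treated arrays (adjusted p = 0.0209). ALDOC was not above background on SK-N-AS arrays 26, 28 and 29, so its difference from ALDOA within arrays is not compared between the lines.

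ENO2 was not above background on any SK-N-AS array. It had 6.09, 5.98 and 6.0 in treated SK-N-AS arrays and 6.94, 6.10 and 6.04 in SK-N-AS controls, against 8.51 and 7.77 in treated SK-N-FI arrays and 8.33 and 8.33 in SK-N-FI controls. The measured log2 difference, which uses these SK-N-AS values below background, was -1.97 in controls (limma adjusted p = 0.000114). Between treated arrays it was -2.12 (adjusted p = 6.37e-05). Median centring gave -1.13 in controls (adjusted p = 0.0072) and -1.28 in treated arrays (adjusted p = 0.00337). Set against the background limit of the SK-N-AS arrays, ENO2 was at least 2.50-fold lower in SK-N-AS controls than in SK-N-FI controls. Between treated arrays it was at least 2.37-fold lower, and these bounds carry no test. After quantile normalization no such bound could be given, since the SK-N-FI means (7.33 treated, 7.45 control) were below the limit of the SK-N-AS arrays. The measured quantile-normalized difference was -0.60 in controls (adjusted p = 0.17) and -0.91 in treated arrays (adjusted p = 0.0466), a call that was lost in 7 of 10 fits that left out 1 array. Without SK-N-AS control array 25, whose 6.94 was the highest of the 6, the control difference was -1.0 and was called.

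PKM and LDHA, which close the path by making pyruvate and lactate, were among the brightest probe sets in both lines. PKM had 15.09, 15.13 and 14.81 in treated SK-N-AS arrays and 15.35, 14.95 and 14.96 in SK-N-AS controls, against 15.58 and 15.51 in treated SK-N-FI arrays and 15.62 and 15.50 in SK-N-FI controls. Its log2 difference was -0.47 in controls (interval -0.96 to 0.01, adjusted p = 0.0824) and -0.53 in treated arrays (adjusted p = 0.0538). Neither was called after quantile normalization (-0.40, adjusted p = 0.15, and -0.45, adjusted p = 0.11). Median centring gave 0.37 (adjusted p = 0.177) and 0.30 (adjusted p = 0.27). On the deposited values eBayes with trend called PKM lower in controls (adjusted p = 0.0281) and treated arrays (adjusted p = 0.0155). The background filter called it lower between treated arrays (adjusted p = 0.0317). Without SK-N-AS control array 25 both deposited differences were called (-0.60 and -0.53). The single probe set of PKM gives no separate values for its M1 and M2 splice forms.

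LDHA had 15.97, 15.55 and 15.34 in treated SK-N-AS arrays and 15.94, 15.46 and 15.89 in SK-N-AS controls, against 16.30 and 16.15 in treated SK-N-FI arrays and 16.11 and 16.47 in SK-N-FI controls. Its log2 difference was -0.53 in controls (adjusted p = 0.0963) and -0.60 in treated arrays (adjusted p = 0.0598). After quantile normalization it was -0.85 (1.81-fold lower in SK-N-AS, adjusted p = 0.0118) and -0.88 (adjusted p = 0.0104), while median centring gave 0.32 (adjusted p = 0.316) and 0.23 (adjusted p = 0.469). The direction of LDHA between the lines thus depended on the scaling. On the deposited values eBayes with trend called LDHA lower in controls (adjusted p = 0.0413) and treated arrays (adjusted p = 0.0217). The background filter called it lower between treated arrays (adjusted p = 0.0428). The quantile-normalized call in controls was lost without SK-N-FI control array 2 (-0.67), and that in treated arrays without either SK-N-FI treated array. On the deposited scale LDHA was called in treated arrays without SK-N-AS treated array 28 (-0.78). LDHA is shown because its window held the most ACGTG matches of the 22, with 5 in 3 places at its first listed start, chr11:18394313-18394612 (+), and 0 at its other start.
LDHA: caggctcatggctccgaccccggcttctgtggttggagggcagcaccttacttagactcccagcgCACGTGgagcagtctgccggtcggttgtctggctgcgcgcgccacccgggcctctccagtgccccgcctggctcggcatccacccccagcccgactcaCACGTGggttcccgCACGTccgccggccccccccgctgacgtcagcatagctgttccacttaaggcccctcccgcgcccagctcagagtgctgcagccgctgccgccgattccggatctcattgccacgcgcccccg

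**Figure D3:**
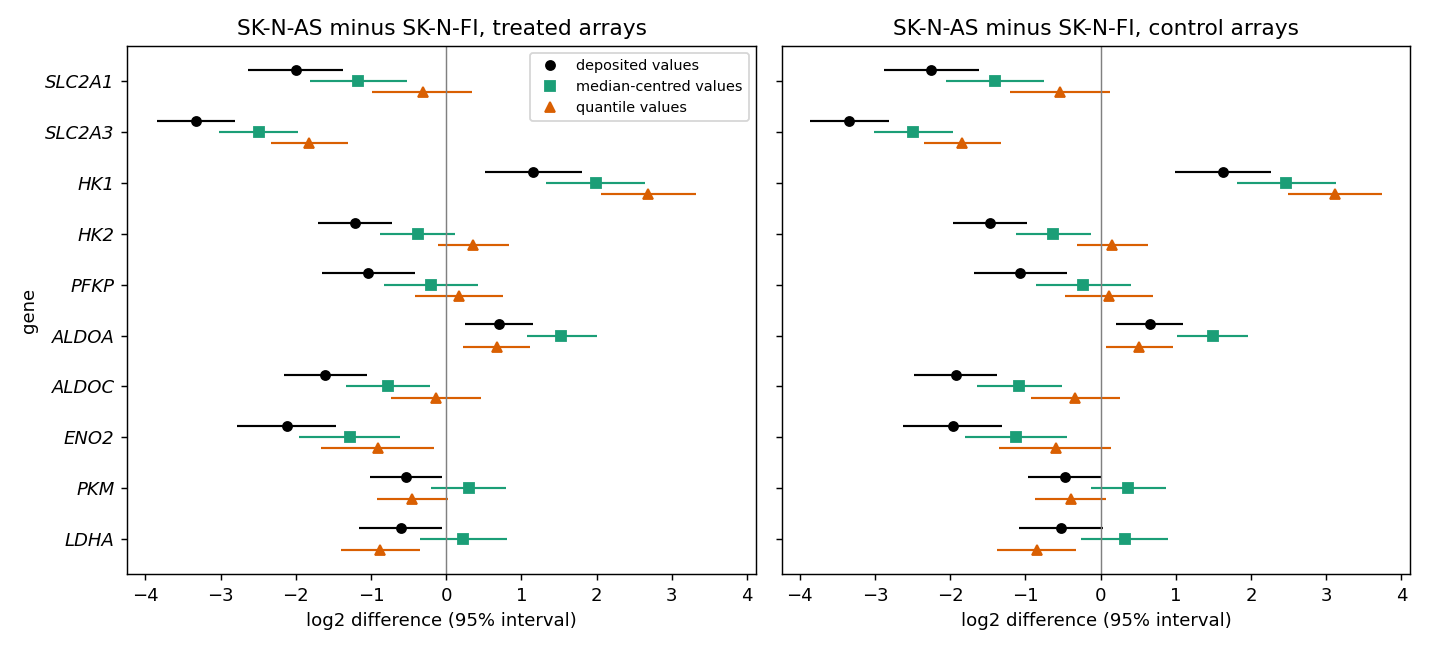
Log2 difference, SK-N-AS minus SK-N-FI, with its 95% interval (x axis), for each gene (y axis), in treated arrays (left) and control arrays (right), on the deposited, median-centred and quantile-normalized values. HK1 is above 0 and SLC2A3 below 0 in each of them, while HK2 and PFKP move to the other side of 0 after quantile normalization.

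The conjugate moved none of the 10 genes past the threshold in either line. In SK-N-AS 0 of 10 were called, as were 0% of all probe sets, and at an unadjusted p of 0.05 the count was 0 of 10 genes beside 2.60% of all probe sets (557). The log2 changes of treated over control SK-N-AS arrays ran from -0.33 for ENO2, which is below background there, and -0.32 for ALDOC to 0.06 for HK1. All 10 intervals lay within a doubling or a halving of the signal, as did those of 82.1% of all probe sets. HK1 changed by 0.06 (interval -0.55 to 0.67), HK2 by 0.00 (-0.46 to 0.47) and SLC2A3 by -0.10 (-0.62 to 0.42). Treated and control SK-N-AS arrays overlapped for all 10 genes, where 7.31% of all probe sets did not overlap. The median change of the 10 was -0.10, beside 0.00 over all probe sets.

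In SK-N-FI 0 of 10 genes were called, as were 0% of all probe sets, each of the 10 with an adjusted p of 1. At an unadjusted p of 0.05, 1 gene passed, beside 2.85% of all probe sets (611). That gene was ALDOC, with a log2 change of -0.64 (interval -1.20 to -0.08, unadjusted p = 0.0293): both treated arrays (8.43 and 8.75) were below both controls (9.39 and 9.07). HK1 had a change of 0.53 (interval -0.09 to 1.15, unadjusted p = 0.0835), with both treated arrays above both controls, and SLC2A1 of -0.40 (interval -1.0 to 0.21). Arrays did not overlap for 4 of 10 genes, HK1 higher and SLC2A1, ALDOA and ALDOC lower in treated SK-N-FI arrays, where 27.8% of all probe sets did not overlap. The intervals of 7 of 10 genes lay within a doubling or a halving, beside 84.9% of all probe sets, and the median change was -0.13, beside -0.01 over all.

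The change with the conjugate was not shown to differ between the lines for any of the 10. The difference of the changes, SK-N-AS minus SK-N-FI, was called for 0 of 10 genes and for 0% of all probe sets (limma interaction; 2.13% of all, or 457, at an unadjusted p of 0.05). It was -0.47 for HK1 (interval -1.38 to 0.44) and 0.32 for ALDOC (interval -0.46 to 1.10). The intervals are wide: those of 6 of 10 genes lay within 1 on the log2 scale, beside 36.6% of all probe sets.

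**Figure D4:**
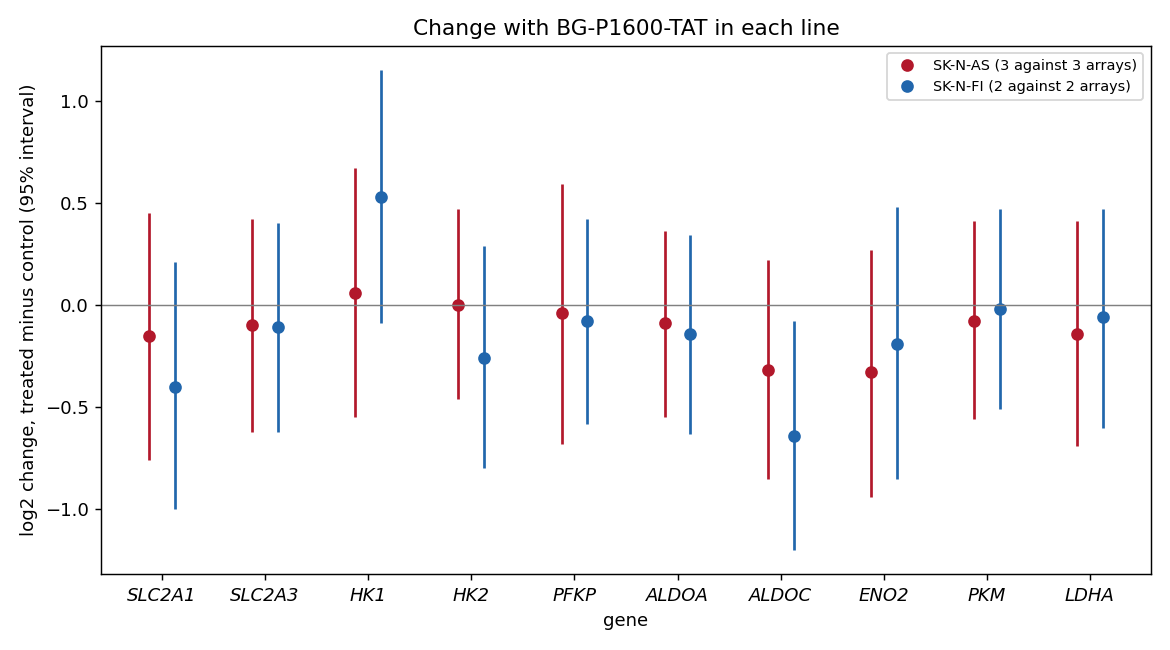
Log2 change, treated minus control, with its 95% interval (y axis), for each gene (x axis) in SK-N-AS and SK-N-FI. The interval of ALDOC in SK-N-FI (-1.20 to -0.08) is the 1 of 20 that leaves out 0 without adjustment, and no gene passed after adjustment over all probe sets.

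Single arrays held the highest or lowest value of several genes. In SK-N-AS, array 30 was the lowest of the 6 for 5 genes (SLC2A1, PFKP, ALDOA, PKM and LDHA) and array 25 the highest for 5 (HK1, ALDOA, ALDOC, ENO2 and PKM). In SK-N-FI, control array 2 was the highest of the 4 for 5 genes and treated array 2 the lowest for 5, for SLC2A3 by a gap too small to show at 2 decimals. In each line the array named as highest was a control and the array named as lowest was treated. On the deposited scale, means were lower in treated arrays for 8 of 10 genes in SK-N-AS and 9 of 10 in SK-N-FI. Several of these changes were small, such as -0.04 for PFKP in SK-N-AS and -0.02 for PKM in SK-N-FI. The signs of both turned in some fits that left out 1 array. The shares of all probe sets with such extremes or lower means were not counted, so these counts are not read as particular to the 10 genes. Whether these extremes follow the single array or the treatment was not tested.

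The other genes of the pathway, 69 with a probe set on lists chosen with earlier results known, were read between the lines in the same way. The counts of these lists are set against the control comparison over all probe sets, in which 11.5% were called higher and 47.8% lower on the deposited scale and 23.9% and 22.8% after quantile normalization, and none is read as particular to its list. These counts cover probe sets never above background, such as HKDC1 and LDHC among the enzymes. Those above background on all arrays were 9 of 20 other glycolytic enzymes and 5 of 13 regulators. They were 10 of 15 genes of pyruvate and lactate handling and 4 of 8 of the pentose phosphate pathway. Of 20 other glycolytic enzymes, 3 were called higher and 7 lower in SK-N-AS controls on the deposited scale, and 4 and 4 after quantile normalization. PGK1, which makes ATP in the later steps of glycolysis, averaged 13.50 in SK-N-AS controls and 12.37 in SK-N-FI controls (1.13, adjusted p = 0.00685, and 2.31 after quantile normalization, adjusted p = 4.49e-05). PGAM1, a phosphoglycerate mutase, was lower in SK-N-AS controls (-1.97 deposited and -0.86 quantile-normalized), and so was TPI1, the triosephosphate isomerase (-1.59 and -0.67). Between treated arrays PGK1 was not called on the deposited scale (0.64, adjusted p = 0.0912), nor TPI1 on the quantile-normalized one (-0.33, adjusted p = 0.282), and PGAM1 was called lower on both (-2.02 and -0.93).

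Of 13 other glucose transporters, of the SLC2A family and the sodium-coupled SLC5A family, 1 was called higher and 3 lower on the deposited scale (5 and 3 after quantile normalization), and 1 was above background on all arrays. SLC2A14, a close copy of SLC2A3 whose signal may not be separable from it, was lower in SK-N-AS controls by -2.01, or -0.68 after quantile normalization (adjusted p = 0.0199). SLC2A11, a fructose and glucose carrier, was not above background in SK-N-AS and at least 3.35-fold lower there in controls (at least 1.16-fold after quantile normalization). Between treated arrays both were called lower on either scale.

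Of 13 regulators, 4 were called higher and 7 lower on the deposited scale and 5 and 3 after quantile normalization. PFKFB3, which makes the activator of phosphofructokinase, averaged 7.75 in SK-N-AS controls and 3.54 in SK-N-FI controls, where it was not above background. It was at least 1.17-fold higher in SK-N-AS controls on the deposited scale and at least 3.01-fold after quantile normalization. Between treated arrays PFKFB3 had no bound above 1 on the deposited scale and was at least 1.91-fold higher after quantile normalization. The MYC pair ran in opposite directions: MYC was at least 1.35-fold higher in SK-N-AS controls (at least 3.51-fold after quantile normalization), and MYCN, not above background in SK-N-AS, at least 8.87-fold lower (at least 2.88-fold). TXNIP, which restrains glucose uptake, was higher in SK-N-AS controls, by 0.79 and by 2.32 after quantile normalization. Between treated arrays MYC was at least 1.10-fold higher and MYCN at least 9.79-fold lower on the deposited scale, and TXNIP was 0.76 higher (adjusted p = 0.0285).

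Downstream of PKM, 2 of 15 genes of pyruvate and lactate handling were called higher and 11 lower on the deposited scale (4 and 4 after quantile normalization). The 2 subunits of the mitochondrial pyruvate carrier parted: MPC1 was lower in SK-N-AS controls (-3.69, and -2.11 quantile-normalized) and MPC2 higher (0.91 and 2.49). PDHX, a component of the pyruvate dehydrogenase complex, was lower (-3.50 and -1.93), and BSG, the partner of the lactate carriers, higher (0.75 and 1.59). Between treated arrays MPC1 (-3.97 and -2.43) and PDHX (-3.20 and -1.66) were called lower on both scales. MPC2 and BSG were not called there on the deposited scale (0.45, adjusted p = 0.251, and 0.63, adjusted p = 0.0689) but were after quantile normalization (2.04 and 1.5). Of 8 genes of the pentose phosphate pathway, 1 was called higher and 4 lower (4 and 1 after quantile normalization), with PGD, one of its dehydrogenases, lower on both between controls (-2.75 and -1.11) and on the deposited scale alone between treated arrays (-2.41, against -0.78 after quantile normalization, adjusted p = 0.0702). No gene of these lists was called with the conjugate in either line.

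Among 7892 named probe sets above background in 1 line or both, those most like HK1 over the 10 quantile-normalized, centred arrays were IGBP1, UNC93B1 and TMED9, at root mean square distances of 0.171, 0.184 and 0.185 on the log2 scale, where the median distance was 1.57. Those most like PFKP, the gene with the smallest quantile-normalized difference between control arrays in absolute size, were PRDX2, NDUFA6 and CDKN2AIPNL, at 0.111, 0.117 and 0.117 (median 0.66). HK1 was taken as the gene with the largest such difference, and the likeness rests on 10 arrays of 2 lines.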

How the data were processed

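The labels' protocols describe Trizol extraction, biotin labelling of a whole-transcript target and Affymetrix arrays. Values were used as the authors deposited them, on a log2 scale with 1 value per probe set. RMA and Transcriptome Analysis Console 4.0.1.36 are named, with no role, in the submitters' processing notes. RMA equalises array distributions, which hides a shift common to most genes. The medians differed between the lines, and whether the lines were normalized separately was not tested. Scanner files were not used here. Of 24351 probe sets, 2903 were controls. The other 21448 were tested, 17709 of them with a symbol (each matched in RefSeq, GRCh38.p14) and 3739 unnamed here. Arrays carry no counts, and their number limits the precision.

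Samples were placed in groups by title. SK-N-FI had 2 arrays per condition here, fewer than its design text states. Within a line, treated were set against control arrays, and lines were compared in a 4-group fit of all 10 arrays. The tool was limma 3.58.1 in R 4.3.3 (lmFit, eBayes, two-sided, no covariate), with Benjamini-Hochberg adjustment over the 21448 probe sets and a threshold of 0.05. The code was tested on simulated data. The alternatives were quantile normalization, median centring, a filter on background, eBayes with trend, array weights, a 2-group fit, a replicate block and leaving out each array. Leaving out arrays 25 and 28 together, the crossed block and leaving out arrays after quantile normalization were chosen after seeing the data.

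The members and lists were chosen with earlier results of these data known. All 10 members are named. From each other list, up to 4 genes are named: those called on both scales between controls, by quantile-normalized adjusted p, and above background on every array of 1 line or both. For likeness, the 3 genes nearest the members with the largest and the smallest line difference are named. Probe sequences were not used, so cross-hybridisation with near-identical copies, which several glycolytic genes have, was not checked.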

Additional observations from a re-analysis of the deposited data

How the results depend on the processing

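With 2 or 3 arrays per group, wide intervals limit what the treatment comparisons can show. Dim signals limit HK2, ALDOC and ENO2, and also HK1 in SK-N-FI. In both treatment comparisons and in their difference, 0 genes and 0 probe sets were called under all alternatives run. The lines' different scales limit the line comparisons. Between controls, quantile normalization gave 1 gene called higher and 2 lower in SK-N-AS, with 5124 probe sets higher and 4897 lower, against 2473 and 10253 on the deposited values. Median centring gave 7485 and 5969. The background filter, which tests fewer probe sets, gave 984 called higher. Between treated arrays, quantile normalization gave 3 genes lower and 5018 and 4751 probe sets, median centring 7319 and 5888, and the filter 1002 and 6594. On the deposited values, eBayes with trend also called PKM and LDHA lower in both line comparisons, and the filter called them lower between treated arrays. Without arrays 25 and 28, 4 genes were lower between controls after quantile normalization. At the 99th percentile of negative controls, 4 genes were above background on every SK-N-AS array and 5 on every SK-N-FI array, against 8 and 10.

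Signs turned as follows between controls: HK2 0.15 and PFKP 0.11 after quantile normalization, PKM 0.37 and LDHA 0.32 after median centring. Between treated arrays they were HK2 0.36 and PFKP 0.17, and PKM 0.30 and LDHA 0.23, and quantile-normalized PFKP was -0.0012 without arrays 25 and 28. For the change in SK-N-AS, HK2 was -0.012 after quantile normalization, -0.0046 after median centring and -0.18 without arrays 25 and 28, where PKM was 0.015. For the difference of the changes, array weights gave SLC2A3 -0.077 and PKM 0.061, and leaving out arrays 25 and 28 gave SLC2A3 -0.24, PFKP -0.073, ENO2 0.11 and PKM 0.032. The cause of these turns was not tested.

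Leaving out 1 array at a time, the count called between controls ran from 1 to 2 genes higher and 6 to 7 lower, and 1 to 3 lower after quantile normalization. Between treated arrays it ran from 0 to 2 higher and 5 to 7 lower, and after quantile normalization from 1 to 2 higher and 1 to 3 lower. The count of 0 was without SK-N-FI treated array 2, where HK1, ALDOA and also PFKP (-0.93) were not called. Quantile-normalized ALDOA between treated arrays was not called without either SK-N-FI treated array or SK-N-AS treated array 29, and ENO2 was not called in 7 of 10 such fits. HK1 and SLC2A3 were called in all 10 fits on quantile-normalized values in both line comparisons, at 2.92 to 3.32 and -1.98 to -1.69 between controls. Signs turned within these ranges. In the SK-N-FI change, ENO2 ran from -0.56 to 0.18, LDHA from -0.24 to 0.11, PFKP from -0.18 to 0.027, PKM from -0.079 to 0.044 and SLC2A3 from -0.24 to 0.020. In the SK-N-AS change, HK1 ran from -0.15 to 0.25, HK2 from -0.12 to 0.093, PFKP from -0.26 to 0.21, PKM from -0.14 to 0.052, SLC2A1 from -0.42 to 0.031 and SLC2A3 from -0.28 to 0.018. In the difference of the changes, ALDOA ran from -0.029 to 0.14, ENO2 from -0.52 to 0.22, LDHA from -0.26 to 0.099, PFKP from -0.19 to 0.29, PKM from -0.13 to 0.070, SLC2A1 from -0.052 to 0.54 and SLC2A3 from -0.17 to 0.14. Between treated arrays after quantile normalization, ALDOC ran from -0.31 to 0.032 and PFKP from -0.0089 to 0.40. A group left with 1 array is assumed to vary like the others.

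The replicate block, by the shared numbers 1 and 2 of SK-N-FI, left 0 genes and 0 probe sets called. Same-numbered deviations correlated at -0.171, and the crossed pairing also gave 0 calls. Every gene had 1 probe set, so the alternative of a median over probe sets was not run.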
